A study of Rattus norvegicus with 2 samples.

Results

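The genes described here are 9 genes that drive or mark the loss of muscle protein: the ubiquitin ligases Fbxo32, Trim63 and Fbxo30, the transcription factors Foxo1 and Foxo3, the growth inhibitor Mstn, and the calpains Capn1, Capn2 and Capn3. They were chosen by gene symbol, and of the 9 genes 8 had a named probe, 1 probe each, among 13337 named genes and 22523 probes. Foxo1 had no named probe here. The study set skeletal muscle of streptozotocin-treated diabetic rats labelled EA, for electroacupuncture, beside muscle labelled Mock. Both samples came from male Wistar rats aged 8 to 10 weeks, and streptozotocin, which kills the insulin-producing beta cells, is described for the animals of both. The treatment text is the same on both samples, with needles at the leg acupoint ST36 for 5 min and then current for 60 min at 15 Hz and 10 mA, so the handling of the Mock animals is unknown. Which muscle was taken, how long after stimulation, and whether animals were pooled are also not stated. The series title gives its aim as a screen of intracellular signalling behind a fall in blood glucose. Each group had 1 Illumina bead array, so no difference below has a replicate check, a standard error or a p-value, and any difference between these samples other than the stimulation cannot be told apart from it.

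Muscle mass falls when protein is broken down faster than it is made, as in fasting, disuse, high glucocorticoids and a lack of insulin. With insulin present, the kinase Akt phosphorylates FoxO factors and keeps them out of the nucleus. With insulin low, FoxO factors enter the nucleus and switch on the muscle ubiquitin ligases atrogin-1 (Fbxo32) and MuRF1 (Trim63), which tag proteins for the proteasome. Myostatin (Mstn) is a secreted member of the TGF-beta family that limits muscle growth through activin receptors and Smad proteins, and calpains are calcium-activated proteases that cut cytoskeletal and sarcomeric proteins.

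The promoter of Trim63 is shown because it is a textbook target of this pathway. Its RefSeq sequence, at chr5:151816986-151817285 on the plus strand of build GRCr8, runs from 250 bases before the gene start to 50 after it. Capitals mark, in order, the TGTTCT hexamer read by the glucocorticoid receptor joined to the FoxO motif TGTTTAC, and then a TATA box.
Trim63: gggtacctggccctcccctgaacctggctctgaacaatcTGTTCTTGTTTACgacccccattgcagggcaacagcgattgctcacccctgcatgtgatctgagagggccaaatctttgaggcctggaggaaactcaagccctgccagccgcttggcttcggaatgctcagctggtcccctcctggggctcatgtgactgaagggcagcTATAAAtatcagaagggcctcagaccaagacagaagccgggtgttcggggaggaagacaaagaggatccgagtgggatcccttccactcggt
The promoter of Fbxo30, at chr1:7475589-7475888 on the plus strand of GRCr8, is shown beside it because this ligase gene differed more between the arrays than Trim63 did.
Fbxo30: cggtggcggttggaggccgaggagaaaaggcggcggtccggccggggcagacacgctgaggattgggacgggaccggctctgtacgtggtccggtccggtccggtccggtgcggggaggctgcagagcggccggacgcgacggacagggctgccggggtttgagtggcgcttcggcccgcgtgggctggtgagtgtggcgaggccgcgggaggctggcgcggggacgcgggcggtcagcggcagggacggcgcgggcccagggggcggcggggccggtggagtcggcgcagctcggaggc
In the Trim63 promoter the FoxO motif, searched as GTAAACA on both strands, starts 205 bases before the gene start, and the hexamer, searched as AGAACA on both strands, starts 211 bases before it, so that they touch without overlap. The FoxO motif was present in 3.78% and the hexamer in 20.7% of all 33469 promoters of this length, and TATAAA on the gene's strand in 8.80%. The Fbxo30 window, with a GC content of 77.3% against 57.0% for Trim63, held none of these letters. Of the 9 genes, 5 had a promoter entry (Trim63, Fbxo30, Foxo1, Capn2 and Capn3), and the FoxO motif was found in that of Trim63 only. A match describes the letters of the window and is not evidence of binding.

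On the arrays, the intensity is the brightness of a probe on a linear scale as deposited, and a probe counted as detected where its detection p was under 0.01. The background level, taken as the brightest intensity with a detection p of at least 0.5, lay at 117 in the Mock sample and 122 in the EA sample. Differences below are log2 values after background correction and quantile normalization, EA minus Mock, and folds come from them. Of the 8 genes with a probe, 7 were detected on both arrays, and Foxo3 was detected on neither. These 7 fell into a bright set (Trim63, Capn2 and Capn3), at 18.6 to 38.5 times the background level, and a dim set (Fbxo32, Fbxo30, Mstn and Capn1), at 1.32 to 2.17 times it.

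**Figure D1:**
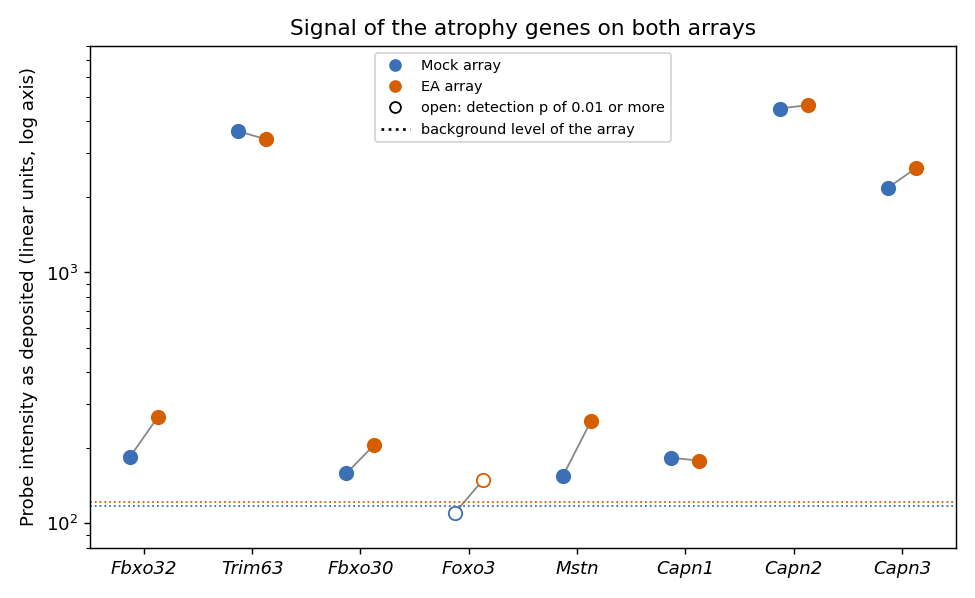
Deposited probe intensity (log axis) of the 8 genes with a named probe on the Mock array (blue) and the EA array (orange), with the background level of each array dotted. Filled points were detected. Trim63, Capn2 and Capn3 lie between 2178 and 4647 on both arrays, while the others lie at 265 or lower and Foxo3 was not detected on either array.

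Among the ubiquitin ligases, Fbxo32 and Fbxo30 were higher on the EA array and Trim63 was nearly level. Fbxo32, the F-box protein atrogin-1, which among others targets the initiation factor eIF3f and MyoD, had an intensity of 183 in the Mock sample and 265 in the EA sample. After normalization it was 1.74-fold higher on the EA array, a log2 difference of 0.80. With the authors' deposited table it was 1.41-fold higher. Fbxo30, an F-box protein also called MUSA1 that is induced in denervated mouse muscle, had an intensity of 158 in the Mock sample and 206 in the EA sample. It was 1.54-fold higher, at 0.62, and 1.32-fold higher with the authors' deposited table. Its signal on the Mock array lay only 4.53 units above that of the dimmest detected probe, close to the limit of detection. Trim63, the RING-finger ligase MuRF1 of the sarcomere, had an intensity of 3658 in the Mock sample and 3395 in the EA sample. Its log2 difference was -0.09, with 45.4% of the 5047 genes detected on both arrays below it. The log2 difference of Fbxo32 exceeded that of Trim63 by 0.89, by 0.57 with the authors' deposited table and by 0.50 without background correction. This sets a probe at 1.56 times the background level of the Mock array beside one at 31.2 times it.

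Of the FoxO genes Foxo1 and Foxo3, only Foxo3 had a probe, and it did not pass the detection threshold of 0.01 on either array. Foxo3 induces atrogin-1 and autophagy genes in mouse muscle. Its intensity was 110 in the Mock sample, with a detection p of 0.756, and 149 in the EA sample, with a detection p of 0.0376. The EA value was 1.22 times the background level and would pass a threshold of 0.05, while the Mock value lay below the background level. No fold is given, since neither value passed the threshold used here. FoxO activity is set largely by phosphorylation and location in the cell, which an array does not measure.

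Mstn gave the largest difference of the 7 detected genes. Its intensity was 155 in the Mock sample and 256 in the EA sample, which is 1.66 times as bright. After background correction and normalization it was 2.52-fold higher on the EA array, at a log2 difference of 1.33. It ranked 57th from the top of 5047 genes. On the Mock array, however, it stood at a detection p of 0.00970 and only 1.05 units above the dimmest detected probe, so the denominator of this fold lies at the edge of detection. Above the background level, Mock had 37.6 units and EA had 134. The fold was 1.78 with the authors' deposited table, 1.53 without background correction and 1.95 with an offset of 50, so the call of 2-fold depends on how background was handled.

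**Figure D2:**
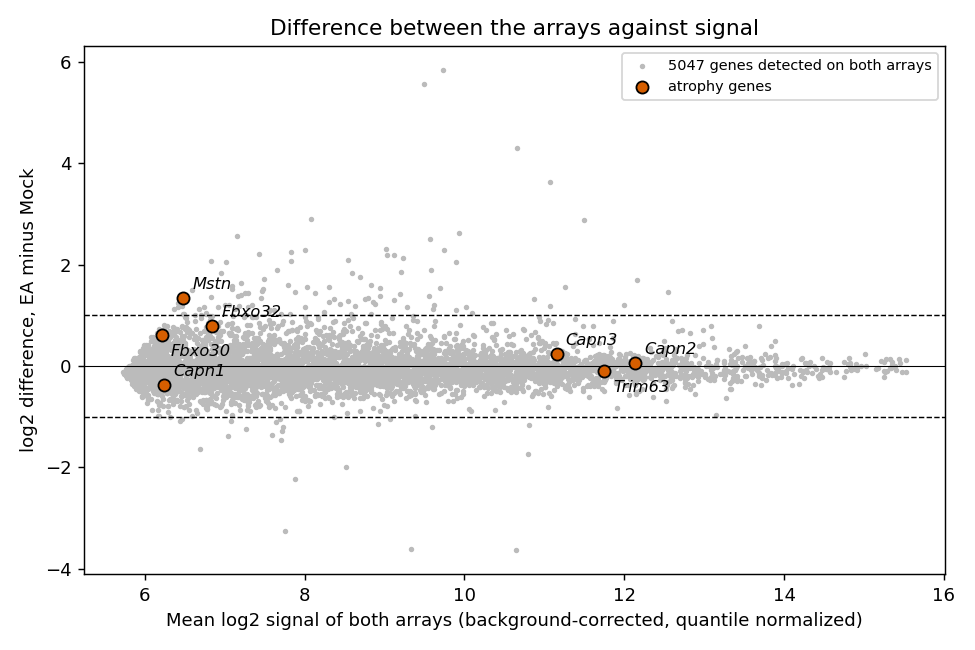
Difference between the arrays (log2, EA minus Mock) against the mean log2 signal of both arrays for the 5047 genes detected on both (grey) and the 7 detected atrophy genes (orange), with dashed lines at 2-fold. Only Mstn lies past 2-fold, and Trim63, Capn2 and Capn3 lie at -0.09, 0.07 and 0.24 at high signal.

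None of Capn1, Capn2 and Capn3 reached 1.5-fold in either direction. Capn2, the catalytic subunit of m-calpain, had an intensity of 4504 in the Mock sample and 4647 in the EA sample, a log2 difference of 0.07 that turned to -0.16 when the arrays were scaled to their 75th percentile. Capn3, the calpain of skeletal muscle, which binds titin and is lost in a limb-girdle muscular dystrophy, had an intensity of 2178 in the Mock sample and 2610 in the EA sample. Its log2 difference was 0.24, or 1.18-fold higher. Capn1, the catalytic subunit of mu-calpain, had an intensity of 183 in the Mock sample and 178 in the EA sample. Its log2 difference of -0.38 stands beside a ratio of 0.973 between its deposited intensities, before background correction and normalization. The difference was -0.24 with the authors' deposited table.

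Taking the 7 detected genes together, 1 reached 2-fold higher in EA (Mstn), as did 2.08% of the genes detected on both arrays, and none was 2-fold lower, where 0.456% were. At 1.5-fold, 3 were higher (Mstn, Fbxo32 and Fbxo30), against 6.28% of all detected genes, and none was lower, against 3.88%. Without background correction, and with the authors' deposited table, Mstn alone reached 1.5-fold. All 3 were dim, and among the 1622 genes with a mean log2 signal under 7.5 the share at least 1.5-fold higher was 8.26%, and at least 2-fold higher 2.47%. Of the 7 genes, 5 lay above 0 (Capn2 fell below it after 75th percentile scaling), against 41.2% of all detected genes, and their median was 0.24 against -0.06 for all. These are descriptions of 7 genes on this pair of arrays and carry no test. The scatter between probes of the same gene gives a scale for a single probe. Over 60 pairs of probes for the same gene its SD was 0.25, or 0.27 over the 31 pairs whose dimmer probe had a mean log2 signal under 7.5, which would put 95% of single probes within 0.54 if the scatter were normal. Mstn, Fbxo32 and Fbxo30 lay outside that width and Capn1 inside it. Trim63, Capn2 and Capn3 lay inside 0.42, the width from the other 29 pairs. Fbxo32 and Fbxo30 came inside 0.54 with the authors' deposited table, at 0.49 and 0.40, and without background correction, at 0.42 and 0.26. Fbxo30 did so also with an offset of 50, at 0.43. The widths come from the reported processing, and the scatter under these alternatives was not computed, so this comparison is only rough. This scatter leaves out the variation between animals.

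**Figure D3:**
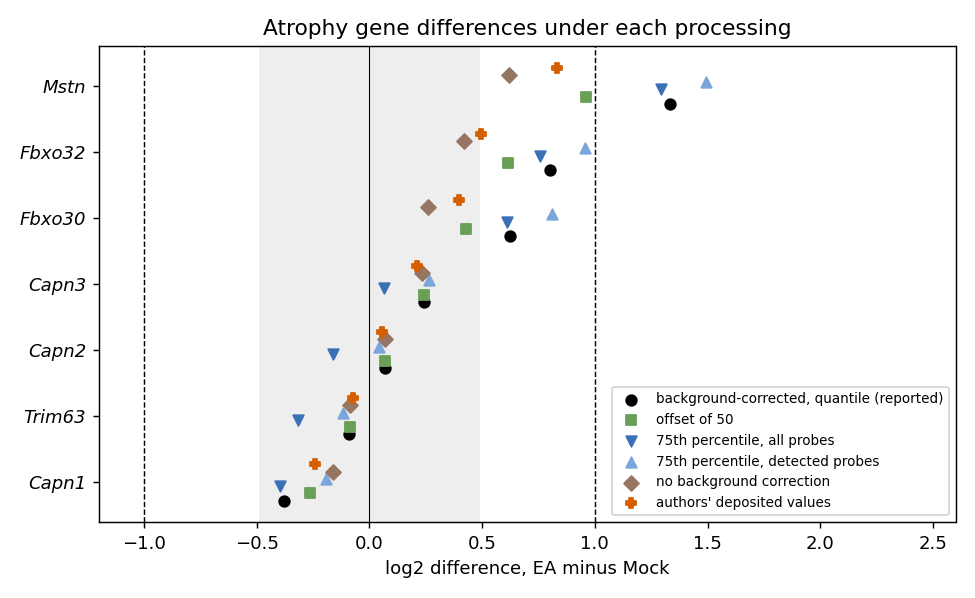
Log2 difference (EA minus Mock) of each detected atrophy gene under the reported processing (black circles) and 5 alternatives, with 2-fold dashed. The 95% width of a single probe over all 60 pairs, 0.48 on either side of 0, is shaded and comes from the reported processing only. Mstn, Fbxo32 and Fbxo30 are to the right of 0 under every processing shown, and only Mstn passes 2-fold, under 3 of the 6.

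The other genes of these pathways were read from 4 lists. Of the 26 other muscle ubiquitin ligases and partners listed, 15 were detected on both arrays, with a median log2 difference of 0.02, which became -0.16 after 75th percentile scaling. None of the 15 was 2-fold different, where 2.08% of all detected genes were higher and 0.456% lower, and 2 were at least 1.5-fold higher, against 6.28% of all. Fbxo31, an F-box protein that targets cyclin D1, had an intensity of 294 in the Mock sample and 480 in the EA sample, at a log2 difference of 0.86. Cblb, a ligase that targets Irs1 in unloaded muscle, lay at 0.59, or 1.51-fold, and fell short of 1.5-fold without background correction (1.21), with an offset of 50 (1.35), with the authors' deposited table (1.28) and after 75th percentile scaling (a log2 difference of 0.58). The lowest were Stub1, the chaperone-bound ligase CHIP, at -0.42, and Trim55, the MuRF2 relative of Trim63, at -0.35. Usp28, a deubiquitinase, was detected only on the EA array, with an intensity of 149 in the Mock sample and 198 in the EA sample. Set against the dimmest detected signal of the Mock array, its EA signal was at least 1.19-fold higher without background correction, at least 1.32-fold higher with the authors' deposited table and at least 1.54-fold higher with background correction, so the size of this bound depends on the processing.

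Of 29 regulators and targets of FoxO, 19 were detected on both arrays, with a median log2 difference of -0.01, or -0.18 after 75th percentile scaling. In EA, 3 of them reached 2-fold higher, as did 2.08% of all detected genes, and none 2-fold lower, where 0.456% were. At 1.5-fold, 4 were higher under the reported processing, against 6.28% of all, and none was lower, against 3.88%. Pdk4, which blocks pyruvate dehydrogenase and is induced by FoxO in fasting, had an intensity of 576 in the Mock sample and 1514 in the EA sample, 2.90-fold higher. Sgk1, a kinase that phosphorylates FoxO3 and is itself induced by glucocorticoids and other stimuli, had an intensity of 1532 in the Mock sample and 3318 in the EA sample, 2.27-fold higher. Ccng2, an atypical cyclin induced by FoxO, was 2.39-fold higher, from an intensity of 154 in the Mock sample, only 0.0964 units above the dimmest detected probe, to 247 in the EA sample. Without background correction its fold was 1.48. With the authors' deposited table Pdk4 was 2.25-fold, Sgk1 1.96-fold and Ccng2 1.71-fold higher. Other FoxO targets lay the other way, the lowest being Ddit4, an inhibitor of mTORC1, at -0.58, and Cat, the catalase gene, at -0.42. Cdkn1a, which encodes the cell cycle inhibitor p21, was detected only on the EA array, and the same bound was at least 1.05-fold without background correction and at least 1.15-fold with it. Of the 19 genes, 9 lay above 0 and 10 below.

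Of 27 genes of myostatin and activin signalling, 9 were detected on both arrays and 11 on neither, so most of the receptors and ligands could not be read. The median log2 difference was 0.08, which became -0.06 after 75th percentile scaling, and no gene of the 9 was 2-fold different, against 2.08% higher and 0.456% lower of all detected genes. The highest were Fstl1, a follistatin-like glycoprotein, at 0.73, and Dcn, a matrix proteoglycan that binds myostatin, at 0.65. Smad7, the inhibitory Smad that shuts off the receptor, was lowest at -0.78, with an intensity of 194 in the Mock sample and 168 in the EA sample. It was 1.72-fold lower in EA, or 1.26-fold without background correction. Smad4, the shared partner of the receptor Smads, lay at -0.22. Tgfbr1, a type I receptor, was detected only on the EA array. After background correction and quantile normalization its EA signal did not exceed the dimmest detected signal of the Mock array. With scaling to the 75th percentile of detected probes it was at least 1.08-fold higher. Of the calpain system, 3 of 13 listed genes were detected on both arrays. Capns1, the small regulatory subunit that pairs with Capn1 and Capn2, had an intensity of 984 in the Mock sample and 1472 in the EA sample. Its log2 difference was 0.61, or 1.53-fold higher. It fell short of 1.5-fold without background correction (1.47), with the authors' deposited table (1.36) and after 75th percentile scaling (a log2 difference of 0.42). Cast, the calpain inhibitor calpastatin, and Capn7 both lay at 0.23.

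**Figure D4:**
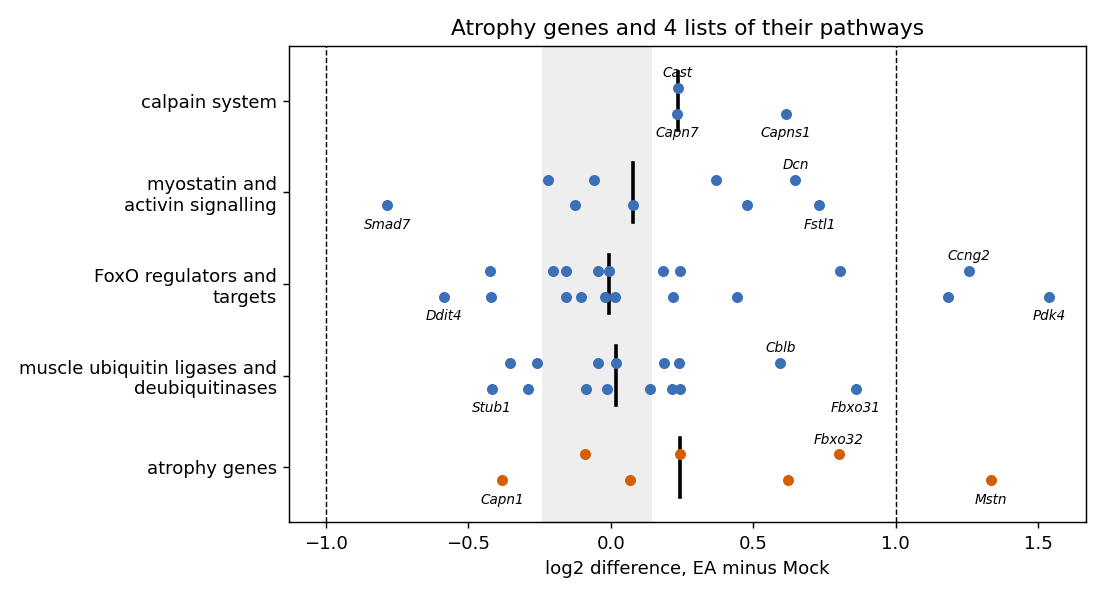
Log2 difference (EA minus Mock) of the 7 detected atrophy genes (orange) and of the genes of 4 related lists detected on both arrays (blue), with the list median as a bar. The interquartile range of all 5047 genes, -0.24 to 0.14, is shaded and 2-fold is dashed, and Pdk4, Ccng2, Sgk1 and Mstn lie past 2-fold.

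Markers of fibre types and of other cell types also differed. Each summed intensity below takes every named marker probe of its list, detected or not, with no background removed. Markers of skeletal muscle fibres were detected on both arrays for 10 of 10 probes with a name, with a median log2 difference of 0.04 (-0.08 after 75th percentile scaling) and a summed intensity of 263080 in the Mock sample and 293028 in the EA sample. Within them Myh4, the myosin of the fastest fibres, lay at 0.70 and Myh2, that of fast oxidative fibres, at -0.99. Slow fibre markers had a median of -1.99 over the 5 of 9 detected on both arrays (Myl3 and Tnnt1 were detected in Mock only, Tnni1 and Myl2 in neither). Of these 5, 4 lay below 0 and Tpm3 lay above it, at 0.73, or 0.33 without background correction. The summed intensity of the slow fibre markers was 8149 in the Mock sample and 3255 in the EA sample. Fibroblast and matrix markers, to which Dcn also belongs, had a median of 1.21 over 12 of 13 (Thy1 was not detected), all 12 above 0 except that Lum turned to -0.09 after 75th percentile scaling, and their summed intensity was 13247 in the Mock sample and 23182 in the EA sample. Endothelial markers had a median of 0.60 over 6 of 8 (Cdh5 and Tek were not detected), with 5 above 0 and Egfl7 below it at -0.30. Cldn5, Sox17 and Esam lay at 1.18, 1.48 and 1.00, and Vwf and Tie1 at 0.19 and 0.13. The summed intensity of the endothelial markers was 1662 in the Mock sample and 2611 in the EA sample. The median of the macrophage and leukocyte markers was 0.90 over 3 of 7, all 3 of them complement genes. C1qb and C1qc lay at 0.90 and 0.98, and C1qa at 0.01, or -0.06 after 75th percentile scaling. Cd14 was detected in EA only, and Ptprc, Adgre1 and Cd163 in neither sample. The summed intensity of the macrophage and leukocyte markers was 1439 in the Mock sample and 2009 in the EA sample. Erythrocyte markers had a median of 0.70 over 5 of 7 (Alas2 and Slc4a1 were not detected). The globin genes Hbb, Hba-a1 and Hbb-b1 lay at 0.70, 0.79 and 0.89. Gypc and Ahsp lay below 0, at -0.23 and -0.15, and Ahsp turned to 0.02 with scaling to the 75th percentile of detected probes. The summed intensity of the erythrocyte markers was 20716 in the Mock sample and 33629 in the EA sample. Of the smooth muscle markers, 2 of 4 were detected on both arrays, Tagln at 1.18 and Des, which is also a fibre marker, at 0.03. Adipocyte markers had a median of 0.15 over 4 of 7, which became -0.04 after 75th percentile scaling. The size of several medians depended on background handling. Without background correction they were -1.53 for slow fibre, 0.72 for fibroblast and matrix and 0.34 for endothelial markers. Those of the macrophage and leukocyte and the erythrocyte markers were then 0.70 and 0.69. Less RNA per cell and fewer cells of a type cannot be told apart in whole muscle, and the part of these shifts in the values of Mstn, Fbxo32, Fbxo30, Capns1, Fstl1 and Dcn was not tested.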

How the data were processed

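Skeletal muscle RNA of 2 samples was hybridised to Illumina rat bead arrays, per the labels after biotin labelling with an Ambion kit. The deposited non-normalized table holds, per the file headers, a linear intensity and a detection p-value per array for 22523 probes. Its intensities are not background-subtracted, with lowest values of 65.6 and 64.4. A second deposited table holds intensity values that the authors normalized between arrays by a method not given in the sources used here. Its values rank the probes as the first table does (Spearman rho of 1 on both arrays, across probes), with medians of 137.3 (Mock) and 137.5 (EA). Its scale was taken as linear, and any centring is unknown. It was used as an alternative.

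Background was corrected with limma 3.58.1 in R 4.3.3 (nec, background from the detection p-values, offset of 16), and the arrays were quantile normalized over all probes and put on the log2 scale. The steps were checked on simulated data. Python 3.11.15 with pandas 2.3.3 did the rest. Of 13793 named probes, 13752 were matched through gene identifiers and 5 through accessions to the RefSeq GRCr8 table, which changed 4 symbols, and 8730 probes have no name here. A gene took its brightest probe. A gene detected (p under 0.01) on 1 array has a lower bound against the higher of its own dim signal and the dimmest detected signal of that array. No test was possible with 1 array a group, and precision is limited by that number of arrays. Alternatives were no background correction, an offset of 50, 75th percentile scaling, the authors' table, all probes of a gene, detection at 0.05 and no detection filter. Scaling over detected probes and the comparison with genes under a log2 signal of 7.5 were added after seeing the data. The genes, lists and naming rule were chosen with earlier results of these data known. The rule named, of each list, genes at least 2-fold different, the 2 highest and 2 lowest, and genes detected on 1 array. No gene was named for a similar pattern, since with 2 arrays any pair of genes correlates perfectly.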

Additional observations from a re-analysis of the deposited data

How the results depend on the processing

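No paired analysis was possible because each group had 1 array. Of the 7 detected genes, the number at least 2-fold higher in EA was 1 as reported and 0 without background correction, with an offset of 50 and with the authors' deposited table, where Mstn lay at log2 differences of 0.62, 0.96 and 0.83. The number at least 1.5-fold higher was 3 as reported and 1 without background correction and with the authors' deposited table. The other counts and the median of the 7 kept within 1.5 times or within the probe scatter under the alternatives run. Using all probes of a gene could not change them, since each gene has 1 probe. Nor could detection at 0.05, which leaves the same 7 genes detected on both arrays. Scaling to the 75th percentile of all probes moved the median gene from -0.06 to -0.19, and scaling to that of detected probes moved it to 0.01. Of all genes at least 2-fold different, 82.0% were higher on the EA array, against 71.7% and 89.0% under these scalings. At 1.5-fold the shares were 61.8%, 39.4% and 80.1%. Over all detected genes, those at least 2-fold higher and lower numbered 105 and 23 as reported, 53 and 8 without background correction, 47 and 7 with the authors' deposited table, 76 and 16 with an offset of 50, 91 and 36 with the first scaling and 129 and 16 with the second. At 1.5-fold they were 317 and 196 as reported, 159 and 45 without background correction, 159 and 44 with the authors' table, 235 and 102 with the offset of 50, 249 and 383 with the first scaling and 436 and 108 with the second. At a detection threshold of 0.05 there were 35 genes 2-fold lower among 5717, and with no detection filter 47 among 13337, where 530 were 1.5-fold higher and 337 lower. Signal over background limits Fbxo32, Fbxo30, Mstn and Capn1 most, at 1.56, 1.35, 1.32 and 1.56 times the background level of the Mock array.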
